A study of Mus musculus with 6 samples.

Results

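Alveolar type 1 cells are the thin, flat cells that cover most of the gas exchange surface of the lung, and the genes described here are 10 of the transcripts used to recognise them: Hopx, Ager, Pdpn, Aqp5, Gprc5a, Krt7, Col4a3, Cav1, Rtkn2 and Clic5. The genes were chosen by name, as listed type 1 cell genes, and were found on the arrays through the RefSeq transcript that each probe carries in the scanner files. Probes were found for 9 of the 10, and no probe matched Rtkn2 through the transcript table used here, so it has no value. The 9 genes are part of 32456 genes and unnamed probes tested.

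Lungs came from male C57BL6 mice 10 weeks of age that had been starved for 16 h and then given an intraperitoneal dose of 20 mg/kg LPS, the outer membrane component of Gram-negative bacteria. The saline group (3 mice) received saline at 3 h and 24 h after LPS, and the antithrombin group (3 mice) received recombinant anti-thrombin, an inhibitor of thrombin, at 750 IU/kg at the same times. All 6 lungs were taken 30 h after LPS, and RNA of the whole lung was hybridised to 1 array per mouse. Both groups carry the LPS dose and the starvation, and mice without LPS were not analysed here, so every difference compares antithrombin with saline within endotoxaemia.

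Type 1 cells lie against the capillaries and share a basement membrane with them, and during repair they are formed from surfactant-producing type 2 cells. During that change the new cells pass through a keratin-rich transitional state, spread out, and switch on genes for water channels, caveolae and basement membrane collagen. In injury models, type 1 cells are the cells whose loss opens the air space to plasma fluid, and the receptor encoded by Ager is released from them into lung fluid and blood. Several of the 10 genes are also active elsewhere in the lung: Cav1 in endothelium, Pdpn in lymphatic vessels and mesothelium, and Krt7 in airway epithelium and mesothelium. The RNA is from whole lung, and values are scaled within each array. Fewer type 1 cells, less RNA per cell and a larger share of RNA from other cells therefore cannot be told apart.

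Upstream sequences of 250 bases were available for 7 of the 10 genes in the RefSeq promoter table (GRCm38.p6), and 4 are shown because they set genes whose groups did not overlap (Hopx, Aqp5, Krt7) beside 1 whose groups did (Clic5). For Hopx, the table lists 2 starts, and the one farther upstream is shown because it is the one that holds a match. Each runs 5′ to 3′ on the strand of the gene and ends at the base before the start of the transcript, and capitals mark a match, on either strand, to 1 of 6 motifs.
Hopx (chr5:77115124-77115373, minus strand): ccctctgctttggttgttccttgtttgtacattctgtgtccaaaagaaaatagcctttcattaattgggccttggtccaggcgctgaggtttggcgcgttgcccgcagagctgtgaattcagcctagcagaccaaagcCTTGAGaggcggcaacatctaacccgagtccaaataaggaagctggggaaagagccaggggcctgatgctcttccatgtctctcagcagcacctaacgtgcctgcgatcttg
Aqp5 (chr15:99590778-99591027, plus strand): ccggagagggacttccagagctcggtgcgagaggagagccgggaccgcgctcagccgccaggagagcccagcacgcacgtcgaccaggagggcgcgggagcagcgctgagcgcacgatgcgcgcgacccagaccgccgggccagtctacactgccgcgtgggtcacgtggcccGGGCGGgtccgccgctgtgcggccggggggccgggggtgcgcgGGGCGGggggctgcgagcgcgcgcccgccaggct
Krt7 (chr15:101412153-101412402, plus strand): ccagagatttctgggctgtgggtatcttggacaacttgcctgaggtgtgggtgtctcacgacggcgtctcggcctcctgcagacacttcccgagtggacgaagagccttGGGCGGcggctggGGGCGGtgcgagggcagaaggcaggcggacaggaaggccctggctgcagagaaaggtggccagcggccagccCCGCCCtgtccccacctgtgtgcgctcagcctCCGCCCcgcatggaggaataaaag
Clic5 (chr17:44188322-44188571, plus strand): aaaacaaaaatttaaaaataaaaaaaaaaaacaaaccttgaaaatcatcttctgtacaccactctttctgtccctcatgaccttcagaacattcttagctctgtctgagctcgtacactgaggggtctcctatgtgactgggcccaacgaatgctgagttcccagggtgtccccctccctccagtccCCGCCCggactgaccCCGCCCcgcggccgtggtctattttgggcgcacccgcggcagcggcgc
The motifs searched, whose matches here did not overlap each other, were GGAATG of the TEAD factors, TGANTCA of AP-1, CTCAAG of NKX2-1, GGGCGG of the GC box, TATAAA of the TATA box and the palindromic glucocorticoid response element. The GC box was matched in Aqp5, Krt7, Clic5 and 1 of 2 listed Cav1 starts, and it occurs in 32.7% of the 32851 promoters of the table over the same 250 bases. The shown Hopx start held 1 match to the NKX2-1 letters, which occur in 13.3% of promoters, 112 bases before the start. That Cav1 start also held a TATA box match 221 bases before the start, and Pdpn and Ager held no match to any of the 6. The remaining shares were 12.6% for TEAD, 6.75% for AP-1, 12.4% for the TATA box and 0.387% for the glucocorticoid receptor motif. The Aqp5 stretch was rich in C and G, at 78.4% of its bases, against a median of 52.4% over all promoters, which is also the value of the shown Hopx start. These matches are letters in a window and were not tied to any measured binding.

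Every value below is a log2 spot signal less the 75th percentile of its array, so 0 is the level of a probe at that percentile and a difference of 1 is a factor of 2 between mice. Levels are compared between mice for 1 probe at a time and not between genes, since probes differ in how brightly they bind. All 9 genes were well above background on all 6 arrays, with raw median pixel signals from 385 for the dimmest member probe used (Col4a3) to 98645 for the brightest (Ager) against a local background of 19 to 27. Between 69.8% and 72.1% of all probes per array were also well above background. Detection of the 9 genes therefore does not test the label of the tissue. One saline array stood apart: over all genes, mouse 2 of that group had a mean r of 0.9928 to the antithrombin mice but 0.9887 to its own group. The main changes in the calls when it is left out are given with most lists.

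All 9 measured type 1 genes had a lower mean after antithrombin, with a median log2 difference of -0.45 against -0.05 over all genes tested. A negative difference was seen for 57.0% of all genes. None of the 9 passed the adjusted threshold of 0.05 (limma, Benjamini-Hochberg over all genes tested), which 0.00616% of all genes passed. At an unadjusted p under 0.05 (limma), 6 of the 9 were lower and 0 higher, where 12.9% of all genes were lower and 8.73% higher. The same 6 genes, Hopx, Gprc5a, Aqp5, Krt7, Col4a3 and Cav1, had every antithrombin mouse below every saline mouse, which held for 18.1% of all genes. Ager, Pdpn and Clic5 overlapped between groups. The members were chosen by name with earlier results known, so these counts are read only beside the shares over all genes. The shares of 12.9% lower and 8.73% higher are also the background for the other lists on all 6 arrays.

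Hopx, a small homeodomain protein without DNA binding of its own that marks type 1 cells and their precursors, stood at 5.99, 5.89 and 6.19 in saline mice 1 to 3 and at 5.55, 5.53 and 5.41 in antithrombin mice 1 to 3. The groups were separate, and the gap between the lowest saline and the highest antithrombin mouse was 0.34. The means were 6.02 ± 0.15 (SD, n = 3) and 5.50 ± 0.08 (SD, n = 3), a log2 difference of -0.52 (SE 0.12). That is 69.5% of the saline level, with a 95% interval of 56.9% to 84.8% (limma, adjusted p = 0.153).

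Gprc5a, a retinoic acid inducible orphan receptor that is abundant in type 1 cells, had the largest difference of the 9. It stood at 6.05, 5.79 and 6.06 in the saline mice and at 5.43, 5.18 and 5.29 in the antithrombin mice. All 3 antithrombin mice lay below saline mouse 2, the lowest saline mouse, and the gap was 0.36. The log2 difference of -0.67 (SE 0.13) is 62.9% of the saline level, with a 95% interval of 50.8% to 77.8% (limma, adjusted p = 0.151). Of 11 tested genes of the retinoic acid pathway, only the receptor gene Rxra, at -0.45, had an unadjusted p under 0.05 (limma).

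Aqp5, the water channel of the apical type 1 cell membrane, stood at 5.11, 4.74 and 5.36 in the saline mice and at 4.71, 4.54 and 4.55 in the antithrombin mice. The saline mice ranged over 0.63 and the antithrombin mice over 0.16, and saline mouse 2 lay only 0.03 above antithrombin mouse 1. The log2 difference was -0.47 (SE 0.17), or 72.2% of the saline level, with a 95% interval of 54.2% to 96.1% (limma, adjusted p = 0.198). A second Aqp5 probe gave -0.42, with saline mouse 2 at 2.17 and antithrombin mouse 1 at 2.16. Of 9 other aquaporins, only Aqp2, at -0.32, had an unadjusted p under 0.05 (limma).

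Krt7, a type II keratin of simple epithelia, stood at 2.75, 2.69 and 2.78 in the saline mice, the narrowest saline range of the 9 genes at 0.10. The antithrombin mice stood at 2.43, 2.40 and 2.03, so antithrombin mouse 3 lay apart from the other two. The log2 difference was -0.45 (SE 0.14), or 73.1% of the saline level with a 95% interval of 58.2% to 91.9% (limma, adjusted p = 0.168). Other keratins, 6 tested, included Krt8, the type II keratin of simple epithelia that pairs with Krt18, at -0.43, Krt18 at -0.36 and the basal cell keratin Krt14 at -1.25, which were the 3 with an unadjusted p under 0.05 (limma). Of all genes, 12.9% were lower at that p. Of the 6 keratins, 4 had a negative and 2 a positive difference, up to 0.58, where 57.0% of all genes were negative. Their mean relative to saline was -0.22, 0.33 and -0.11 in saline mice 1 to 3. It was -0.06, 0.15 and -0.74 in antithrombin mice 1 to 3.

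Col4a3 encodes a chain of the type IV collagen that type 1 cells lay down in the alveolar basement membrane. It stood at -0.55, -0.70 and -0.46 in the saline mice and at -1.10, -1.08 and -0.80 in the antithrombin mice, which were all lower, by a gap of 0.10. The log2 difference was -0.42 (SE 0.13), or 74.5% of the saline level, with a 95% interval of 60.0% to 92.6% (limma, adjusted p = 0.17). Col4a4, the chain that assembles with it, stood at 0.20, 0.27 and 0.27 in the saline mice and 0.09, 0.09 and 0.13 in the antithrombin mice. These Col4a4 groups did not overlap either, but the difference was -0.15 (limma, adjusted p = 0.394). Col4a5, the other partner, differed by 0.22 (SE 0.24) with overlapping groups. Of 17 other basement membrane genes, Col4a1 (-0.30) and the laminin chain Lamb3 (-0.34) were lower and the laminin chain Lama3 (0.43) was higher at an unadjusted p under 0.05 (limma), with a list median of -0.15.

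Cav1, the main coat protein of caveolae, stood at 0.64, 0.18 and 0.81 in the saline mice and at 0.09, 0.05 and -0.27 in the antithrombin mice. Saline mouse 2 lay 0.09 above the highest antithrombin mouse and well under the other two saline mice. The log2 difference was -0.59 (SE 0.19), or 66.5% of the saline level, with a 95% interval of 48.2% to 91.7% (limma, adjusted p = 0.179). A second Cav1 probe gave -0.46, and on it saline mouse 2 (-1.31) lay between antithrombin mice 2 (-1.27) and 1 (-1.36), so the groups overlapped. Both Cav1 probes carry the same transcript, NM_001243064, and what they read of other Cav1 transcripts is not given in the sources used here. Cav2, which forms the coat together with Cav1, stood at 4.82, 4.35 and 4.65 in the saline mice and at 4.07, 4.15 and 4.10 in the antithrombin mice, a difference of -0.50 (limma, adjusted p = 0.162). Of 9 caveolar genes other than Cav1, Cav2, Cavin2 (-0.39), Cavin4 (-0.87) and Pacsin3 (-0.44) were lower at an unadjusted p under 0.05 (limma). Ehd2, an ATPase at the neck of caveolae, was higher by 0.82 at that p, where 12.9% of all genes were lower and 8.73% higher. The scaffold Cavin1 differed by -0.16 with overlapping groups.

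**Figure D1:**
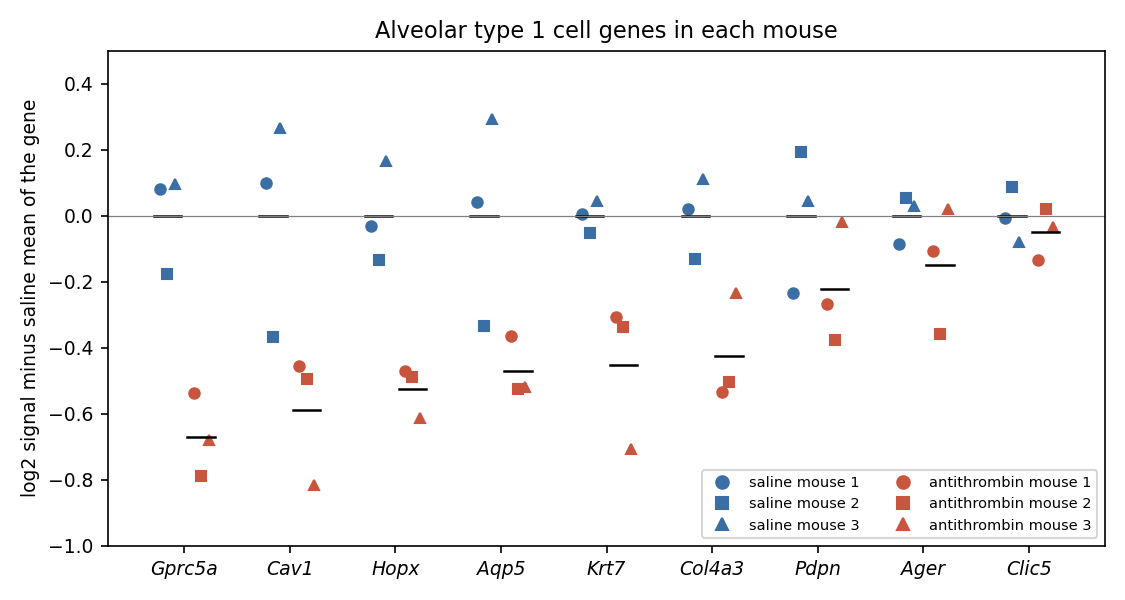
Log2 signal of each measured type 1 gene in each of the 6 mice, less the saline mean of that gene; blue points are saline mice, red points antithrombin mice, and short black lines group means (n = 3 each). For Gprc5a, Cav1, Hopx, Aqp5, Krt7 and Col4a3 all red points lie under all blue points, with the narrowest gap in Aqp5 (0.03), and for Pdpn, Ager and Clic5 the groups overlap.

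Ager encodes the receptor for advanced glycation end products, whose level is far higher in type 1 cells than in other cells. Its brightest probe stood at 6.91, 7.05 and 7.02 in the saline mice and at 6.88, 6.63 and 7.01 in the antithrombin mice. Antithrombin mouse 3 lay among the saline mice. The log2 difference was -0.15 (SE 0.13), or 90.2% of the saline level, with a 95% interval of 72.7% to 112% (limma, adjusted p = 0.515). Leaving out antithrombin mouse 2 gave -0.04, and leaving out antithrombin mouse 3 gave -0.23.

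Ager was the member with the most probes, 5, and they did not give 1 value. Probe A_55_P2718122, which carries the non-coding Ager transcript NR_073173, stood at 0.47, 0.40 and 0.71 in the saline mice and at -0.10, -0.23 and -0.32 in the antithrombin mice, with no overlap. Its log2 difference was -0.74 (SE 0.13), larger than that of any of the 9 genes by their brightest probe (limma with every probe tested singly, adjusted p = 0.15). Its raw median pixel signal was 647.5 to 1199, against 78029 to 98645 for the brightest Ager probe. What it reads of other Ager transcripts is not given in the sources used here. The other 4 probes carry protein-coding transcripts and gave -0.18, -0.15, -0.07 and 0.08. Within each array, the signal of the NR_073173 probe less that of the brightest Ager probe was lower after antithrombin by a mean log2 of -0.59. That difference separated all 3 antithrombin from all 3 saline mice, for which a two-sided exact permutation test gives p = 0.1, the smallest that 3 against 3 allows. The probe of transcript NM_007425, less the brightest probe, differed the other way, by 0.23, with the same exact p. The comparison of Ager probes was chosen after their values were seen, so the exact p of 0.1 restates the separation and adds no support.

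**Figure D2:**
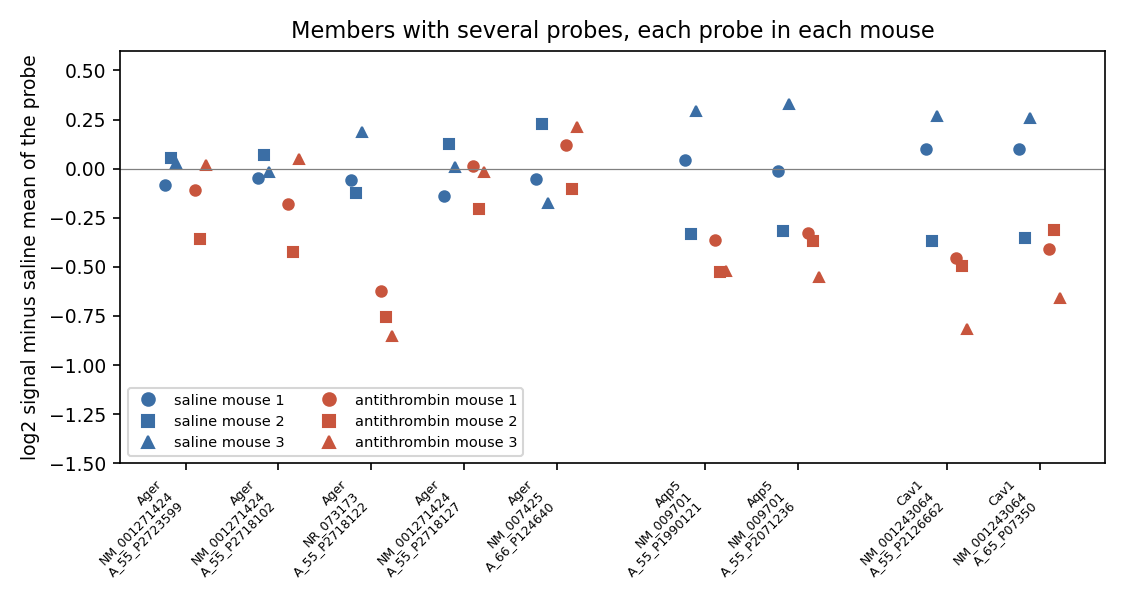
Log2 signal less the saline mean of the probe for the 3 genes with several probes, Ager (5), Aqp5 (2) and Cav1 (2), each labelled with its transcript and probe; blue is saline and red is antithrombin, 1 point per mouse. The NR_073173 probe of Ager has all red points under all blue points, the other 4 Ager probes overlap, and both probes of Aqp5 and of Cav1 place saline mouse 2 nearest the red points.

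Of 11 ligands and partners of this receptor, the neutrophil calprotectin subunits S100a8 and S100a9, which are ligands of it, differed by 0.29 and 0.14 with overlapping groups. Hmgb1, another ligand, stood at -0.35 and App at -0.26, while the protease gene Mmp9 stood at 0.50, and these 3 were the ones with an unadjusted p under 0.05 (limma). S100a8, S100a9 and Mmp9 are on the neutrophil list too. Adam10, the protease that releases the receptor from the membrane, differed by -0.18 without overlap (limma, adjusted p = 0.355), and Diaph1, which binds its cytoplasmic tail, by -0.15.

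Pdpn, the membrane mucin podoplanin that is a classical type 1 surface marker, stood at 4.39, 4.81 and 4.67 in the saline mice and at 4.35, 4.25 and 4.60 in the antithrombin mice. Saline mouse 1 lay under antithrombin mouse 3. The log2 difference was -0.22 (SE 0.16), with a 95% interval of -0.60 to 0.15 (limma, adjusted p = 0.426). Leaving out saline mouse 1 gave -0.34 and leaving out saline mouse 2 gave -0.13. Clec1b, the platelet receptor that podoplanin engages, differed by 0.78 (SE 0.43) with overlapping groups. Of 8 partners, the lymphatic chemokine Ccl21a (0.90) was higher and the tetraspanin Cd9 (-0.25) lower at an unadjusted p under 0.05 (limma).

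Clic5, an ezrin-associated chloride intracellular channel protein, stood at 4.60, 4.70 and 4.53 in the saline mice and at 4.48, 4.63 and 4.58 in the antithrombin mice. The groups overlapped, and the log2 difference of -0.05 (SE 0.11) has a 95% interval of -0.30 to 0.20 (limma, adjusted p = 0.804). It was the smallest difference of the 9 genes, equal to 96.7% of the saline level, and its sign turned with quantile normalisation (0.01). Of 4 other genes of the family, 0 were lower and 0 higher at an unadjusted p under 0.05 (limma), with differences from -0.19 to 0.13.

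**Figure D3:**
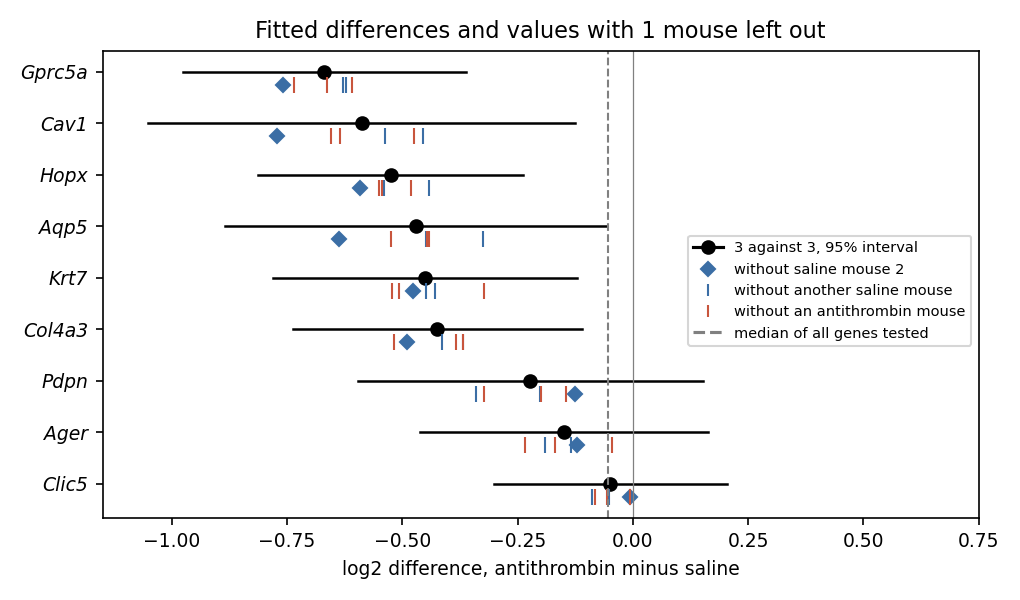
Log2 difference, antithrombin minus saline, for the 9 measured genes, with the limma 95% interval (black, 3 against 3) and, under each, the value with 1 mouse left out (diamond, without saline mouse 2); the dashed line is the median of all genes tested (-0.05). The intervals of Ager, Pdpn and Clic5 include 0, and those of the other 6 genes lie between -1.05 and -0.06.

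Across mice, the mean over the 9 genes of the signal less the saline mean was -0.01, -0.10 and 0.11 in saline mice 1 to 3 and -0.35, -0.43 and -0.40 in antithrombin mice 1 to 3. Saline mouse 3 was the highest of the 6 mice for 6 genes, all of them genes whose groups did not overlap, and saline mouse 2 was the highest for the other 3, Ager, Pdpn and Clic5. Saline mouse 2 was the lowest saline mouse for the 6 separated genes. The lowest of the 6 mice was always an antithrombin mouse, mouse 2 for 4 genes, mouse 3 for 3 and mouse 1 for 2. Saline mouse 2 thus lay nearest the antithrombin mice for the separated genes while it lay farthest from them for the other 3.

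Leaving out saline mouse 2 changed which members passed. Without it, Hopx (-0.59, adjusted p = 0.0411), Aqp5 (-0.64, 0.0412), Gprc5a (-0.76, 0.0312) and Cav1 (-0.77, 0.0393) passed the adjusted threshold (limma), 4 of 9 members, where 5.88% of all genes were lower at that threshold. That mouse lies nearest the antithrombin mice for these genes, so its removal widens their differences by construction. Without saline mouse 1, saline mouse 3, antithrombin mouse 2 or antithrombin mouse 3, 4 of the 9 were lower at an unadjusted p under 0.05 (limma) in place of 6, where 8.76%, 7.16%, 9.16% and 8.02% of all genes were lower. Leaving out antithrombin mouse 1 gave 5, where 8.77% were lower, and leaving out saline mouse 2 gave 6, where 18.3% were lower and 13.5% higher. Those shares are also the background for the other lists with a mouse left out. Hopx, Gprc5a and Krt7 kept an unadjusted p under 0.05 in all 18 alternatives, Col4a3 in 16, Cav1 in 15 and Aqp5 in 13.

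The counts of the partner lists turned on single mice as well. At an unadjusted p under 0.05 (limma), the 2 lower receptor ligands, the 1 lower podoplanin partner and the 1 lower retinoic acid gene became 0 when any 1 mouse other than saline mouse 2 was left out, and they were 2, 1 and 3 when that mouse was. The higher count was 0 to 2 for the receptor ligands, and 0 without saline mouse 1, saline mouse 3 or antithrombin mouse 1. For the basement membrane genes the lower count was 4 without saline mouse 2, 1 without saline mouse 3 or antithrombin mouse 2, and 0 with 1 of the other 3 mice left out. For the aquaporins it was 2 without saline mouse 2 or antithrombin mouse 2, and 0 when saline mouse 3, antithrombin mouse 1 or antithrombin mouse 3 was left out. The caveolar count stayed at 3 to 4 lower and the keratin count at 2 to 3, and 1 gene of the Clic5 family was lower without antithrombin mouse 3. Without saline mouse 2, Cav2 (-0.62), Ehd2 (0.99), Rxra (-0.60), Krt8 (-0.54), Krt18 (-0.49), Mmp9 (0.65) and Ccl21a (1.03) passed the adjusted threshold (limma, adjusted p from 0.0243 to 0.0449). So did 3 basement membrane genes, all lower. At that threshold 5.88% of all genes were lower, and 1508 of 32453 were higher. Each named difference was larger than with all 6 mice. Leaving out saline mouse 2 thus widened them, as it did for the 4 members that passed.

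Of 18 further genes taken as type 1 cell genes, 12 had a negative difference, where 57.0% of all genes did, with a median of -0.19. At an unadjusted p under 0.05, 4 were lower and 0 higher (limma), where 12.9% of all genes were lower and 8.73% higher, and none passed over all genes. Without saline mouse 2 the lower count was 6, with Scnn1a past the adjusted threshold (limma, adjusted p = 0.0356), it was 2 without antithrombin mouse 1 or 2, and it was 1 without saline mouse 1 or saline mouse 3. Scnn1a, the alpha subunit of the epithelial sodium channel that clears fluid from the air space, stood at 5.48, 5.15 and 5.70 in the saline mice and at 4.96, 4.86 and 4.68 in the antithrombin mice, a difference of -0.61 (limma, adjusted p = 0.158). The cytochrome gene Cyp2b10 (-0.41), the metalloproteinase inhibitor Timp3 (-0.39) and the lung claudin Cldn18 (-0.33) were the other 3, and Timp3 overlapped between groups. Vegfa, the vascular growth factor made by type 1 cells, had the opposite sign at 0.26, with all 3 antithrombin mice above all saline mice (limma, adjusted p = 0.269). Akap5 (0.19), Gramd2 (0.26) and Ndnf (0.35) were also positive, with overlapping groups.

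Of 14 genes of the transitional state between type 2 and type 1 cells, 12 had a negative difference, where 57.0% of all genes did, and the median was -0.31. At an unadjusted p under 0.05 (limma), 4 were lower and 0 higher, where 12.9% of all genes were lower, and 0 passed the adjusted threshold. The growth factor gene Hbegf (0.42) and Ndrg1 (0.18) were the 2 positive ones, and for Ndrg1 all antithrombin mice lay above all saline mice. Sfn, the 14-3-3 sigma protein of stressed epithelium, stood at 3.79, 3.37 and 3.81 in the saline mice and at 2.85, 2.72 and 2.82 in the antithrombin mice, a difference of -0.86 (SE 0.15, limma adjusted p = 0.151). Its gap between groups was wider than that of any of the 9 members. Krt8, Krt18 and the cell cycle inhibitor Cdkn1a (-0.47) were the other 3. The list shares Krt8, Krt18 and Krt19 with the keratins above. Without saline mouse 2, 6 of the 14 were lower at that p and 4 passed the adjusted threshold (limma), with a median of -0.47, and without saline mouse 3, 2 were lower, with a median of -0.22.

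Among regulators of type 1 cell fate, 10 of 14 had a negative difference, where 57.0% of all genes did, with a median of -0.18. The TAZ gene Wwtr1, a mechanosensitive coactivator, stood at 3.69, 3.57 and 3.86 in the saline mice and at 3.28, 3.37 and 3.41 in the antithrombin mice, a difference of -0.35 (limma, adjusted p = 0.181). It and Tead2 (-0.27), a DNA-binding partner of that coactivator, were the 2 lower at an unadjusted p under 0.05 (limma), Tead2 only just, and 0 were higher. That is a share near the 12.9% of all genes. The lower count was 7 without saline mouse 2 (median -0.29), 1 without saline mouse 1 or antithrombin mouse 3, and 0 when saline mouse 3 (median -0.10), antithrombin mouse 1 or antithrombin mouse 2 was left out. The paralogue of Wwtr1, Yap1 (-0.15) and the lung lineage factor Nkx2-1 (-0.17) overlapped between groups. Of 12 targets of these coactivators, Ccn1 (0.56) was higher and 0 were lower at that p, with a median of -0.08. Without saline mouse 2, 5 were lower and 1 higher, with a median of -0.21, and 1 passed the adjusted threshold (limma). Without antithrombin mouse 2, 1 was lower. Leaving out saline mouse 1 took the median to -0.03, and leaving out saline mouse 3 turned it to 0.0016. The higher count was 0 without saline mouse 1, antithrombin mouse 1 or antithrombin mouse 3.

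Markers of type 2 cells had a median difference of 0.05 over 16 genes, with 0 lower and 1 higher, the lung chemokine Cxcl15 at 1.05, at an unadjusted p under 0.05 (limma). The direction of that median turned with 1 mouse: leaving out saline mouse 1 gave -0.03, saline mouse 2 gave 0.13 and saline mouse 3 gave 0.09, while leaving out antithrombin mouse 1 gave 0.01 and antithrombin mouse 3 gave 0.02. There were 2 higher when saline mouse 2 was left out and 0 without saline mouse 1, saline mouse 3 or antithrombin mouse 3, and 1 gene was lower without saline mouse 2 or saline mouse 3. Sftpc, the surfactant protein gene specific to type 2 cells, differed by -0.08 with overlapping groups. Of the 16 genes, 7 had a negative difference. In 3 of them, Sftpd (-0.30), Ctsh (-0.26) and Sftpa1 (-0.10), every antithrombin mouse lay below every saline mouse. That separation held for 18.1% of all genes. In 2 others, Cxcl15 and Lamp3 (0.22), every antithrombin mouse lay above every saline mouse. Over 11 markers common to all epithelium the median was -0.22, and the claudin gene Cldn3 (-0.58) was lower and the transcription factor gene Elf3 (0.37) higher at that p. Without saline mouse 2 the median was -0.37, with 6 lower (2 past the adjusted threshold, limma) and 0 higher, while leaving out saline mouse 3 gave -0.09, with 1 lower. The higher count was also 0 without saline mouse 1, saline mouse 3 or antithrombin mouse 2. No test was made of the difference between these lists and the type 1 genes.

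Markers of other cells that share some of the members are given beside them, and their part in the member values was not tested. For capillary endothelium the median over 14 markers was -0.13, with Gpihbp1 (-1.65) and Tmem100 (-1.04) lower and Car4 (0.32) higher at an unadjusted p under 0.05 (limma), and Tmem100 overlapped between groups. Over left-out mice that median ran from -0.18 to -0.08. Without saline mouse 2 the lower count was 3, with 2 lower past the adjusted threshold (limma), and 3 were higher. The lower count was 1 without saline mouse 1, antithrombin mouse 1 or antithrombin mouse 3. The higher count was 0 without any 1 mouse other than saline mouse 2. The mean over those 14 markers, relative to saline, ran from -0.10 to 0.12 in the saline mice and from -0.30 to -0.06 in the antithrombin mice. For lymphatic endothelium (6 markers) the median was -0.23, with Lyve1 at -0.95 (overlapping groups) and Ccl21a at 0.90, and for mesothelium (8 markers) -0.14, with Upk1b at -0.73. Both depended on 1 mouse: leaving out antithrombin mouse 2 gave a lymphatic median of -0.38 and a mesothelial one of -0.23, leaving out antithrombin mouse 3 gave -0.09 and -0.05, and leaving out saline mouse 1 gave a mesothelial median of -0.0013.

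Airway secretory markers (11) had a median of 1.15, which rested on saline mouse 1. Relative to the saline mean they averaged -1.66 in that mouse, 1.13 in saline mouse 2 and 0.53 in saline mouse 3, and the median was -0.08 without it. Smooth muscle markers had a median of 0.64 over 7 genes, neutrophil markers 0.50 over 11 and ciliated cell markers 0.35 over 9. In these, 6, 5 and 4 genes were higher at an unadjusted p under 0.05 (limma), and 0 were lower, where 8.73% of all genes were higher and 12.9% lower. The smooth muscle count was 3 without saline mouse 1 or antithrombin mouse 1, and the neutrophil count was 8 without saline mouse 2 and 2 without antithrombin mouse 1. Without saline mouse 2, 4 smooth muscle and 3 neutrophil markers were higher past the adjusted threshold (limma), where 1508 of 32453 genes were. The ciliated median was 0.21 without saline mouse 1. Neutrophil markers averaged -0.20 to 0.35 in the saline mice, relative to their mean, and 0.54 to 0.63 in the antithrombin mice. Medians were 0.17 for fibroblasts (10 genes), 0.15 for macrophages (12), 0.07 for lymphocytes (10) and 0.52 for red cells and platelets (6), with 0, 2, 0 and 0 genes higher at that p and 0 lower. Over left-out mice these medians ran from 0.05 (saline mouse 2 left out, 3 lower and 2 lower past the adjusted threshold) to 0.22 for fibroblasts. They ran from 0.03 (saline mouse 3) to 0.21 for macrophages. They ran from -0.11 (antithrombin mouse 3) to 0.25 (saline mouse 1) for lymphocytes, whose sign turned, and from 0.30 (saline mouse 1) to 0.85 (saline mouse 2, 3 higher) for red cells and platelets. All tested markers of these lists were well above background on all 6 arrays, except 1 of 7 for smooth muscle.

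**Figure D4:**
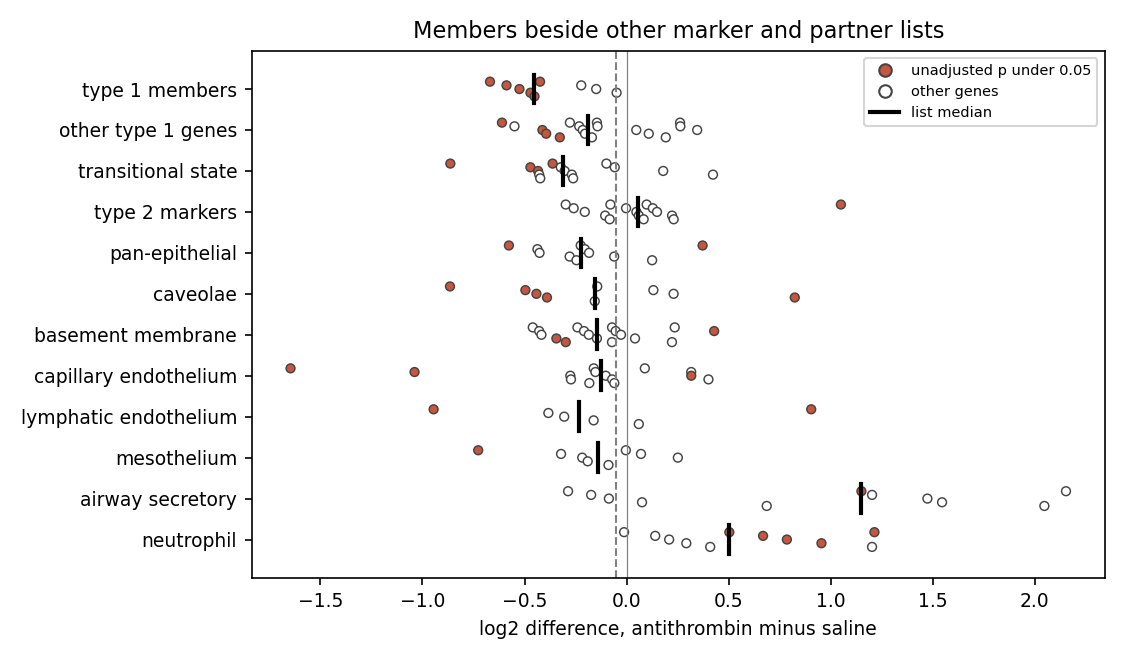
Log2 difference, antithrombin minus saline, of each tested gene in the 9 members and 11 other lists; filled points have an unadjusted p under 0.05 (limma), thick bars are list medians and the dashed line is the median of all genes tested (-0.05). All points of the type 1 members lie left of 0 with a median of -0.45, while the type 2 markers centre on 0.05 (-0.03 without saline mouse 1) and the neutrophil markers on 0.50.

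The profile of the 9 genes over the 6 mice was also set against every other named gene detected on all arrays. By the root mean square difference of log2 values after the saline mean was taken off, the 5 nearest were Ppa2 (0.01), a mitochondrial pyrophosphatase, Fbxl4 (0.03), Gm19710 (0.03), Smarce1 (0.03), a subunit of the SWI/SNF chromatin remodelling complex, and Cab39 (0.04). None of the 5 was on a type 1 cell list. They had log2 differences from -0.42 to -0.36.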

How the data were processed

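Scanner files of 6 one-colour Agilent arrays, 1 per mouse, were used. The deposited spot intensity was made with Agilent Feature Extraction 10.7.3.1, per the file headers, while the submitters' processing notes name version 9.1; it is background-subtracted and not scaled between arrays. A table of log2 values was also deposited; after a probe's own centre and an array offset were taken off, it equalled the scanner values within 0.01 at 100% of probes. Its array medians ran from -0.0369 to 0.0763. Which array scaling and centring the authors used is not given in the sources used here. Its member differences nearly equalled the main ones (Hopx -0.5241 against -0.5249, Clic5 -0.0481 against -0.0488), so as an alternative it nearly repeats the main fit. All arrays were on 1 slide with 1 scan date.

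Signals were taken as log2, less the 75th percentile of non-control probes per array. Control spots and outlier spots were left out and spots of a probe averaged. Probe accessions without version matched RefSeq transcripts of GRCm38.p6 for 32994 of 56605 probes; the array header names mm9, so no array coordinates are given. The brightest probe by mean stood for a gene, and genes well above background on at least 3 arrays were tested with limma 3.58.1 (R 4.3.3, lmFit and eBayes, two-sided, Benjamini-Hochberg). The fit was tested on simulated data. Figures used matplotlib 3.10.9. The members and lists were chosen with earlier results of these data known. The text names all members, fixed partners of members and the 5 nearest profiles. It also names other type 1 genes at an unadjusted p under 0.05 (limma). Each further list adds up to 2 genes of smallest p. App, Krt18, Cavin2, Pacsin3, Lamb3, Car4, Cdkn1a, Vegfa and Akap5 were named after their values were seen. So were Gramd2, Ndnf, Hbegf, Ndrg1, Sftpc, Sftpa1, Ctsh and Lamp3. Each label names a separate mouse. The number of arrays limits the precision.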

Additional observations from a re-analysis of the deposited data

How the results depend on the processing

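The 18 alternatives were median scaling, quantile normalisation, normexp background correction, the dim-probe filter dropped or set to all 6 arrays, detected probes averaged, probes tested singly, the authors' value table, array weights, a robust trended variance, blocks for mouse number or array row, and leaving out each mouse. The count of members past the adjusted threshold was 0 in all of them except without saline mouse 2 (range over left-out mice 0 to 4). The member median ran from -0.52 to -0.37 over left-out mice, and Clic5 turned to 0.0116 with quantile normalisation. The count of all genes past the threshold, 2 with all arrays, was 1 with median scaling, quantile normalisation, normexp, no filter, the stricter filter, every probe singly, the trended variance and the array row block, 3 with array weights, and 0 to 3415 over left-out mice. With the mouse number as a replicate block it was 0, with 0 members past the threshold and 6 lower at an unadjusted p under 0.05 (limma), where 9.04% of all genes were lower. Same-numbered mice did not deviate together (r of deviations from the group means -0.01, -0.16 and -0.28 across genes). Deviations from a mean of 3 mice sum to 0 within a group, so these values cannot show whether the numbers pair the mice. In array row 1 of the slide (2 against 2) all 9 members were negative, from -0.62 to -0.10, where 58.2% of all genes were, and in row 2 (1 against 1) 8 of 9, from -1.08 to 0.05, where 54.6% were. The cause of these shifts was not tested.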
